A study of Homo sapiens with 6 samples.

Results

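The genes described here encode membrane carriers of glucose and other sugars, of sodium-coupled solutes and of monocarboxylates. They were chosen by symbol, as all rows of the SLC2A, SLC5A and SLC16A families except SLC5A3, and made up 39 of the 19940 gene rows of each count table. The SLC2A family contributed 14 genes, the SLC5A family 11 and the SLC16A family 14, and all 39 entered the tests. No measured value entered the choice by symbol, although earlier results of these data were known when the families were picked.

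RNA was measured in U2OS cells, a human osteosarcoma line, by sequencing of total RNA after removal of ribosomal RNA. All cells carried a stable GFP-DCP1A transgene, which encodes a tagged protein of the mRNA decapping complex, and were kept in G418 to select for it. The rescue group was held for 4 h in medium with 300 mM sodium and then for 4 h in isotonic medium. The hypertonic group was held for 4 h in medium with 300 mM sodium, made by adding concentrated PBS. The isotonic group received medium with 150 mM sodium, mock supplemented with PBS of normal strength. Each group had 2 libraries. Rescue cells were harvested 4 h after the hypertonic ones, so rescue and later harvest cannot be told apart. No label says whether 2 libraries with the same label were grown as separate cultures. The p-values thus cover the spread among the 6 libraries alone, and that spread may be technical. The question named by the series is how transcription changes under raised sodium and after its removal. All groups used 1 engineered line, and parental U2OS cells were not analysed here.

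Carriers of the SLC2A family (GLUT proteins) let hexoses or related solutes cross the membrane down their gradient, whereas most SLC5A carriers use the sodium gradient to pull in sugars, myo-inositol, vitamins, choline, iodide or short carboxylates. Several SLC16A carriers (MCT proteins) move lactate, pyruvate or ketone bodies together with a proton, and others carry aromatic amino acids, carnitine or creatine. In cultured tumour cells GLUT1 is known for glucose entry, and MCT1 and MCT4 for lactate exchange.

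Total counts were between 90196278 and 105991428 per library, and 3 counts corresponded to between 0.0283 and 0.0333 CPM, the count scaled to the library total. The libraries labelled hypertonic and isotonic did not group by label. Over 17388 genes with at least 100 summed counts, the SD of the log2 difference was 0.195 between hypertonic 1 and isotonic 2 and 0.184 between hypertonic 2 and isotonic 1. It was 0.952 between the hypertonic libraries, 0.962 between the isotonic libraries and 0.166 between the rescue libraries. Of the 39 carriers, 1 differed by at least 2-fold between hypertonic 1 and isotonic 2 and 0 between hypertonic 2 and isotonic 1, against 13 between the hypertonic and 15 between the isotonic libraries. Over the 17388 genes the shares that differed so were 0.299%, 0.224%, 22.57% and 22.87%, in the same order. The labels were kept as deposited, and each library is given by its own label. Of 10 genes of mesenchymal and bone lineage, 9 were at 1 CPM or more on average, while COL1A2 was near 0.1 CPM.

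The highest level per kb of merged exon was that of SLC16A1 (MCT1, a carrier of lactate and pyruvate), with a mean over the 6 libraries of 51.6 CPM per kb. It was followed by SLC2A1 (GLUT1) at 25.03, SLC16A3 (MCT4, the lactate exporter) at 15.1, SLC5A10 at 13.6, SLC5A6 at 12.4 and SLC16A4 at 12.1 CPM per kb. The average CPM of 22 carriers was at least 5, that of 7 lay between 1 and 5, and that of 10 was under 1. At least 3 counts were found for 39 carriers in each rescue library, for 38 and 35 in the hypertonic libraries and for 37 in each isotonic library. Of all 19940 rows, 18898 and 18862 reached this in rescue, 18159 and 17746 in hypertonic, and 17746 and 18123 in isotonic libraries. More rows were thus detected in rescue over all genes as well.

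**Figure D1:**
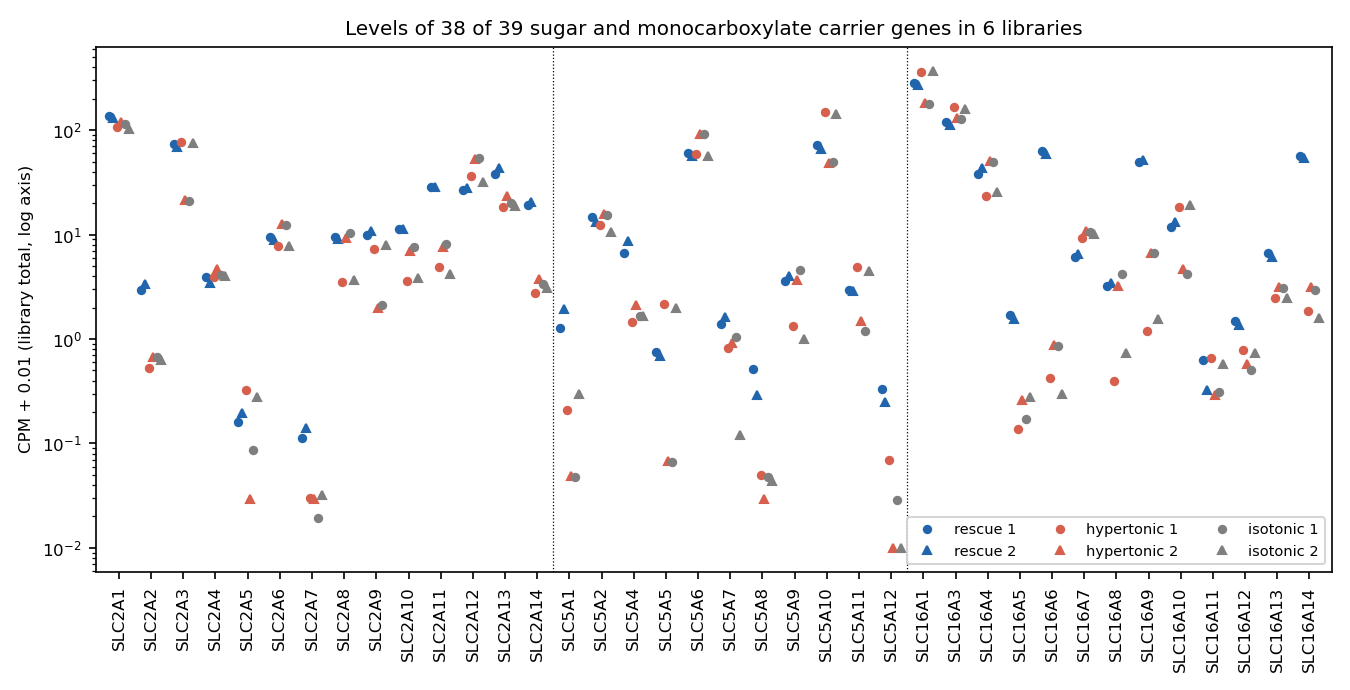
Levels of 38 of the 39 carrier genes in each of the 6 libraries, as CPM by library total plus 0.01 on a log axis, with the SLC2A, SLC5A and SLC16A families from left to right. Colour gives the group and shape the replicate number; for SLC16A6, SLC16A9 and SLC16A14 both rescue libraries are at 49.95 CPM or more and the 4 other libraries at 6.70 CPM or less.

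Summed over the SLC2A family, the libraries labelled rescue 1 and 2 held 368.4 and 366.5 CPM, hypertonic 1 and 2 held 272.0 and 263.4 CPM, and isotonic 1 and 2 held 257.8 and 263.9 CPM. Both rescue sums were above the other 4. After TMM scaling the group means were 320.2 CPM in rescue, 288.0 CPM in hypertonic and 279.4 CPM in isotonic libraries. The SLC5A sums were 164.2 and 155.5 CPM in rescue, 231.0 and 165.5 CPM in hypertonic, and 164.4 and 219.0 CPM in isotonic libraries. Both rescue sums were below the other 4, although rescue 1 lay only just below isotonic 1. Hypertonic and isotonic overlapped. The SLC16A sums were 700.5 and 683.7 CPM in rescue, 620.0 and 428.6 CPM in hypertonic, and 423.1 and 626.4 CPM in isotonic libraries. Both of these families thus differed more between libraries of one label than between the means of hypertonic and isotonic. These are bulk levels, in which fewer cells of a type and less RNA per cell cannot be told apart.

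Against isotonic, 10 carriers rose and 1 fell in rescue by edgeR's quasi-likelihood test, with Benjamini-Hochberg adjustment over 18208 genes and a threshold of 0.05. The 10 were SLC16A6, SLC16A14, SLC5A8, SLC16A5, SLC2A14, SLC2A2, SLC2A11, SLC5A4, SLC16A13 and SLC2A13, and the 1 that fell was SLC16A7. SLC5A8 met the filter on low counts only through its rescue libraries, so its call is no separate support for a rise. The same filter over the 4 hypertonic and isotonic libraries kept 17329 genes and 36 carriers. Of all genes tested, 9.61% rose and 13.5% fell in this comparison, so 25.6% of the carriers rose against 9.61% of all genes and 2.56% of the carriers fell against 13.5%. The same 11 carriers were called, in the same directions, in rescue against hypertonic, where 9.86% of all genes rose and 13.8% fell. The 2 comparisons share the rescue libraries. By family, 4 SLC2A, 2 SLC5A and 4 SLC16A genes rose, and 1 SLC16A gene fell. The median log2 fold change of the 39 carriers was 0.22 in rescue against isotonic, beside -0.02 over all genes, and 0.50 in rescue against hypertonic, beside -0.02.

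Scaling moved the balance of all calls. With TMM, 1749 genes rose and 2453 fell in rescue against isotonic, with upper quartile scaling 2091 rose and 1404 fell, and with library totals alone 2050 rose and 1095 fell. The median log2 fold change of all genes was then 0.19 and 0.27. Of the carriers, 11 rose and 1 fell with upper quartile scaling, and 11 rose and 0 fell with library totals alone, where SLC16A7 was no longer called (edgeR adjusted p = 0.0689). In edgeR's quasi-likelihood test 0 genes of all were called in either rescue comparison when any 1 library of the compared groups was left out, while the unadjusted p was under 0.05 for 3652 to 6631 genes. The lowest adjusted p of a carrier in edgeR's quasi-likelihood test was then 0.0525 in rescue against isotonic and 0.0508 in rescue against hypertonic.

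**Figure D2:**
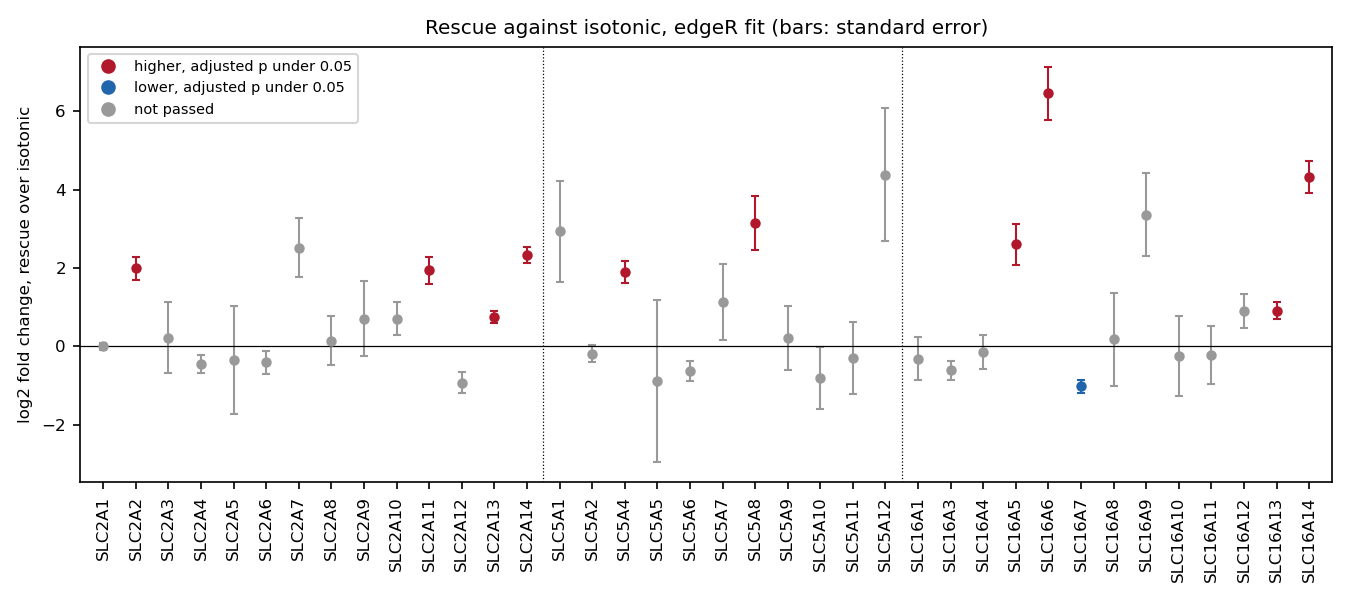
Log2 fold change of rescue over isotonic for 38 of the 39 carrier genes from the edgeR fit over all 6 libraries, with the standard error as bars. The 10 genes that rose are in red, SLC16A7, which fell, is in blue, and genes that did not pass are in grey; the largest value among those that passed is 6.46, for SLC16A6.

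For the genes that changed, the stretch before the transcription start listed by RefSeq (GRCh38.p14) is shown where it held at least 150 bases outside annotated exons, to show the promoters of members that rose and of the 1 that fell. Of the 11 genes, 8 are in the RefSeq promoter table and 5 met this limit. The stretches are SLC16A14 at chr2:230069000-230069174 on the minus strand, SLC2A2 at chr3:171026751-171026970 on the minus strand, SLC5A4 at chr22:32255348-32255597 on the minus strand, SLC2A13 at chr12:40106090-40106331 on the minus strand and SLC16A7 at chr12:59595779-59596028 on the plus strand. Each begins 250 bases before the listed start, the one farthest upstream where more are listed, and reads 5′ to 3′ on the strand of the gene, and capitals mark the motifs described after them.
SLC16A14: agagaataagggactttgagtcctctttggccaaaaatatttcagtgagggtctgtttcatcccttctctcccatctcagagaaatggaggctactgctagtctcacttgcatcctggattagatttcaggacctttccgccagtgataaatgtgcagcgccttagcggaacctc
SLC2A2: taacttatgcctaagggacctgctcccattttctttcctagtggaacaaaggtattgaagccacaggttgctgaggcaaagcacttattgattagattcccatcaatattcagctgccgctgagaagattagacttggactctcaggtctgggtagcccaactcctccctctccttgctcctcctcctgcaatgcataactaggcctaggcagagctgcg
SLC5A4: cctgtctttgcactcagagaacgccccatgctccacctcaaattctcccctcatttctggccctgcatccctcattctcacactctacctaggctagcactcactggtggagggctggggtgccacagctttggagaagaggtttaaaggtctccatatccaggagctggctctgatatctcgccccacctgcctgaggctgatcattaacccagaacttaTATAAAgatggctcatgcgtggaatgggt
SLC2A13: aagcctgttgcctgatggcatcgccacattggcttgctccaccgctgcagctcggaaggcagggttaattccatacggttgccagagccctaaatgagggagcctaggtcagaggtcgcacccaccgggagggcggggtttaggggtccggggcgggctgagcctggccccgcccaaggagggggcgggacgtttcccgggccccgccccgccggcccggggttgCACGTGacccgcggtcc
SLC16A7: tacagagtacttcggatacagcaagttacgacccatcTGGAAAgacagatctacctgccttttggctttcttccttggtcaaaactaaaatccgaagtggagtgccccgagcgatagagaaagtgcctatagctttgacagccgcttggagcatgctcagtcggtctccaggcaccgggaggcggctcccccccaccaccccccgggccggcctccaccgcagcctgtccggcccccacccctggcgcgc
The 6 motifs were searched on both strands. The E box was spelled CACGTG. The core of the hypoxia element was ACGTG. The CRE was spelled TGACGTCA. The AP-1 site was TGAGTCA. The NFAT core was TGGAAA. The TATA box was TATAAA. The E box CACGTG contains ACGTG on both strands. In the stretches printed, CACGTG begins 25 bases before the start of SLC2A13, TATAAA begins 29 bases before that of SLC5A4, TGGAAA begins 213 bases before that of SLC16A7, and those of SLC16A14 and SLC2A2 hold none of the 6. The full window of 250 bases of SLC16A14 does hold TATAAA, but not within the shorter stretch printed. GC content was 69.4% for SLC2A13, 60.4% for SLC16A7, 52.8% for SLC5A4, 49.1% for SLC2A2 and 46.9% for SLC16A14. Of 39 full windows of 250 bases listed for 29 of the carriers, CACGTG was in 7.69% against 7.42% of all 21021 windows, and ACGTG in 20.5% against 20.2%. TGGAAA was in 17.9% of carrier windows against 15.6% of all, TATAAA in 12.8% against 8.79%, TGAGTCA in 2.56% against 3.47%, and TGACGTCA in 0 against 1.99%. A match is only a run of letters in the window.

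Among glucose carriers, the 2 with the highest levels did not pass. SLC2A1, which encodes the GLUT1 protein of most dividing cells, was at 135.9 and 130.9 CPM in rescue, 106.6 and 118.5 CPM in hypertonic, and 114.0 and 103.6 CPM in isotonic libraries. Its 6 values lay between 103.6 and 135.9 CPM. SLC2A3 (GLUT3, a glucose carrier of high affinity known from neurons) was at 72.9 and 68.5 CPM in rescue, 76.1 and 21.2 CPM in hypertonic, and 21.2 and 74.6 CPM in isotonic libraries. Hypertonic 2 and isotonic 1 were low and the other 4 libraries high, so the groups overlapped.

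SLC2A14 (GLUT14, a close copy of GLUT3 that lies next to it on chromosome 12) was at 19.4 and 20.4 CPM in rescue, 2.76 and 3.75 CPM in hypertonic, and 3.36 and 3.07 CPM in isotonic libraries. It rose 5.04-fold in rescue against isotonic, a log2 fold change of 2.33 ± 0.20 (SE, edgeR adjusted p = 0.00891), and by 2.32 on the log2 scale against hypertonic (edgeR adjusted p = 0.00916). Both rescue libraries stood apart from the 4 others. The gene spans chr12:7812512-7891148 and ends 28082 bases from SLC2A3 at chr12:7919230-7936275, both on the minus strand. The counting could split reads between these near-identical genes, so the level of SLC2A14 is uncertain. Its counts came to 26.6% and 29.8% of those of SLC2A3 in rescue, 3.6% and 17.6% in hypertonic, and 15.9% and 4.1% in isotonic libraries. The share was thus not constant, and the part of misplaced reads was not tested.

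SLC2A11 (GLUT11, a carrier of glucose and fructose) was at 28.3 and 28.7 CPM in rescue, 4.85 and 7.62 CPM in hypertonic, and 8.11 and 4.19 CPM in isotonic libraries. It rose by 1.94 ± 0.36 on the log2 scale in rescue against isotonic (SE, edgeR adjusted p = 0.0268) and by 1.91 against hypertonic (edgeR adjusted p = 0.0272). Both rescue libraries were above the 4 others, among which hypertonic and isotonic overlapped. The gene shares 81.47% of its span, but 4.85% of its exon bases, with AP000350.4 on the same strand. The SLC2A11 counts were 13.9% and 14.6% of that row's in rescue, 3.0% and 5.0% in hypertonic and 5.4% and 2.7% in isotonic libraries.

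SLC2A2 (GLUT2, the low-affinity carrier of liver and pancreatic beta cells) was low, at 2.92 and 3.38 CPM in rescue, 0.513 and 0.667 CPM in hypertonic, and 0.665 and 0.621 CPM in isotonic libraries. It rose by 2.00 ± 0.29 on the log2 scale in rescue against isotonic (SE, edgeR adjusted p = 0.0163) and by 2.12 against hypertonic (edgeR adjusted p = 0.0145). Both rescue libraries were above all others, at levels that remain small beside SLC2A1 on the scale of CPM.

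SLC2A13 (HMIT, which brings in myo-inositol with a proton) was at 37.9 and 43.1 CPM in rescue, 18.4 and 23.3 CPM in hypertonic, and 20.2 and 18.7 CPM in isotonic libraries. It rose by 0.76 ± 0.15 on the log2 scale in rescue against isotonic (SE, edgeR adjusted p = 0.0302) and by 0.66 against hypertonic (edgeR adjusted p = 0.041). Myo-inositol is one of the solutes that cells hold to balance high salt. Of its span 43.66%, but of its exon bases 0.7%, overlaps C12orf40.

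The remaining SLC2A genes did not pass. SLC2A12 (GLUT12, a glucose carrier of muscle and other tissues) was at 26.7 and 27.6 CPM in rescue, 36.5 and 52.9 CPM in hypertonic, and 53.8 and 31.6 CPM in isotonic libraries. Both rescue values were the lowest of the 6, with a log2 fold change of -0.93 ± 0.27 against isotonic (SE, edgeR adjusted p = 0.0732) and -1.01 against hypertonic (edgeR adjusted p = 0.0603). DESeq2 called it lower in both (adjusted p = 0.012 against isotonic and 0.0056 against hypertonic). Of the exon bases of SLC2A12, 38.85% also belong to TBPL1 on the opposite strand. TBPL1 was between 37.25 and 43.77 CPM in all libraries, and the part of shared reads was not tested. SLC2A10 (GLUT10, mutated in arterial tortuosity syndrome) was at 11.4 and 11.3 CPM in rescue, 3.55 and 6.97 CPM in hypertonic, and 7.63 and 3.83 CPM in isotonic libraries.
SLC2A8 (GLUT8, found mainly on inner membranes) was at 9.40 and 9.05 CPM in rescue, 3.51 and 9.24 CPM in hypertonic, and 10.3 and 3.66 CPM in isotonic libraries. SLC2A9, whose protein carries urate, was at 9.90 and 10.9 CPM in rescue, 7.21 and 1.95 CPM in hypertonic, and 2.10 and 7.91 CPM in isotonic libraries. For SLC2A8 the number 2 hypertonic and number 1 isotonic libraries were high, and for SLC2A9 the other pair was. SLC2A6 (GLUT6, a carrier of lysosomal membranes) was at 9.56 and 8.84 CPM in rescue, 7.74 and 12.5 CPM in hypertonic, and 12.3 and 7.79 CPM in isotonic libraries. SLC2A4 (GLUT4, the insulin-responsive carrier of muscle and fat) lay between 3.39 and 4.68 CPM in all 6 libraries. SLC2A5 (GLUT5, the fructose carrier) and SLC2A7 stayed at or under 0.316 CPM in each library.

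Among the sodium-coupled carriers, SLC5A10 and SLC5A6 had the highest levels and did not pass. SLC5A10 (SGLT5, a mannose and fructose carrier of kidney) was at 72.2 and 65.8 CPM in rescue, 148.4 and 48.95 CPM in hypertonic, and 49.4 and 141.9 CPM in isotonic libraries. Hypertonic 1 and isotonic 2 were high, and both rescue libraries lay between these and the other pair. Of its span 49.85%, but of its exon bases 8.2%, overlaps FAM83G on the opposite strand. FAM83G was at 66.6 and 60.5 CPM in rescue, 133.9 and 48.4 CPM in hypertonic, and 48.8 and 128.4 CPM in isotonic libraries. GRAP, also on the opposite strand, shares 22.82% of the exon bases of SLC5A10 and was at 2.03 CPM or less in every library. The SLC5A10 count came to between 101.2% and 110.9% of the FAM83G count in all 6 libraries. Reads of these genes may not be told apart, since the strand setting of the counting is not given in the sources used here.

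SLC5A6 (SMVT, which takes up biotin, pantothenate and lipoate) was at 60.0 and 56.4 CPM in rescue, 59.2 and 92.6 CPM in hypertonic, and 91.1 and 57.1 CPM in isotonic libraries. SLC5A2 (SGLT2, the main glucose carrier of the early kidney tubule) was at 14.7 and 13.04 CPM in rescue, 12.5 and 15.7 CPM in hypertonic, and 15.3 and 10.6 CPM in isotonic libraries. Both genes share sequence with a neighbouring coding row, and 31.11% of the exon bases of SLC5A2 also belong to C16orf58. SLC5A4 (SGLT3, described in human as a glucose sensor rather than a transporter) was at 6.61 and 8.59 CPM in rescue, 1.44 and 2.09 CPM in hypertonic, and 1.64 and 1.65 CPM in isotonic libraries. It rose by 1.91 ± 0.28 on the log2 scale in rescue against isotonic (SE, edgeR adjusted p = 0.0167) and by 1.82 against hypertonic (edgeR adjusted p = 0.0181). Both rescue libraries were above the 4 others, while hypertonic and isotonic overlapped.

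Of the low sodium-coupled carriers, SLC5A8 (SMCT1, which brings in lactate, butyrate and other monocarboxylates) rose, and it is named because it is among the 10. It met the filter on low counts only through the rescue libraries, where it was high. SLC5A8 had 0.510 and 0.283 CPM in rescue, 0.0395 and 0.0193 CPM in hypertonic, and 0.0380 and 0.0333 CPM in isotonic libraries, the last 4 within a few counts of 0. Its log2 fold change was 3.15 ± 0.68 against isotonic (SE, edgeR adjusted p = 0.0372) and 3.39 against hypertonic (edgeR adjusted p = 0.0322). SLC5A1 (SGLT1, the intestinal glucose carrier) had 1.26 and 1.91 CPM in rescue against 0.288 CPM or less in the 4 other libraries, and it did not pass.
SLC5A5 (NIS, the iodide carrier of thyroid) was at 0.736 and 0.674 CPM in rescue, 2.14 and 0.0580 CPM in hypertonic, and 0.0570 and 1.97 CPM in isotonic libraries. Hypertonic 1 and isotonic 2 were thus far above their label partners. SLC5A12 was at 0.321 and 0.239 CPM in rescue, 0.0592 CPM in hypertonic 1, 0.0190 CPM in isotonic 1 and 0 in hypertonic 2 and isotonic 2. In the last 2 libraries a count of 0 allows up to 0.0290 and 0.0333 CPM at a floor of 3 counts. That limit covers counting error only. SLC5A12 did not pass. SLC5A7, SLC5A9 and SLC5A11, carriers of choline, of mannose and of myo-inositol, stayed at or under 4.90 CPM in every library and did not pass.

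The 10 carriers with a mean under 1 CPM together held 8.23 and 8.27 CPM in rescue, 5.15 and 2.14 CPM in hypertonic, and 2.24 and 4.25 CPM in isotonic libraries. As a measure of background in these libraries, 386 olfactory receptor genes together held 115.9 and 125.3 CPM in rescue, 41.0 and 58.01 CPM in hypertonic, and 61.1 and 41.4 CPM in isotonic libraries. Rows at 0 numbered 690 and 699 in rescue, 1248 and 1653 in hypertonic, and 1627 and 1270 in isotonic libraries. The background thus moved with the rescue group, and its part in the rises of SLC5A8, SLC16A5 and SLC2A2 was not tested. Markers of other cell types were also measured. The 6 epithelial markers summed to 39.9 and 37.5 CPM in rescue, 26.3 and 17.1 CPM in hypertonic, and 17.4 and 24.6 CPM in isotonic libraries, with both rescue sums the highest. The 6 markers of sugar-transporting epithelia and liver summed to 17.7 and 18.2 CPM in rescue, 13.6 and 18.7 CPM in hypertonic, and 18.5 and 12.7 CPM in isotonic libraries, with SI and UMOD under 0.1 CPM. The 4 endothelial markers summed to 32.3 and 31.4 CPM in rescue, 28.2 and 7.93 CPM in hypertonic, and 8.24 and 28.97 CPM in isotonic libraries. The 5 leukocyte markers summed to 3.60 and 3.01 CPM in rescue, 2.99 and 0.589 CPM in hypertonic, and 0.475 and 2.87 CPM in isotonic libraries. In both lists the rescue sums were also the highest by library total, and sums after TMM scaling were not taken. PECAM1 was lower in rescue (14.3 and 12.8 CPM) than in hypertonic 1 (23.9 CPM) and isotonic 2 (24.7 CPM). CD14 was likewise lower in rescue (0.387 and 0.261 CPM) than in hypertonic 1 (2.00 CPM) and isotonic 2 (1.75 CPM). The other markers of these lists were highest in the rescue libraries. The part of other cell types in the levels of the carriers was not tested.

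Neither of the lactate carriers with the highest levels passed in any comparison. SLC16A1 (MCT1) was at 283.1 and 270.3 CPM in rescue, 361.3 and 182.5 CPM in hypertonic, and 178.1 and 369.4 CPM in isotonic libraries. Hypertonic 1 and isotonic 2 were the highest and hypertonic 2 and isotonic 1 the lowest. SLC16A3 (MCT4, used by glycolytic cells to export lactate) was at 120.7 and 112.2 CPM in rescue, 165.2 and 131.1 CPM in hypertonic, and 128.5 and 159.3 CPM in isotonic libraries. Both rescue values were the lowest, with a log2 fold change of -0.61 ± 0.24 against isotonic that did not pass (SE, edgeR adjusted p = 0.144). Of its span 67.54%, but of its exon bases 5.36%, overlaps CSNK1D. The SLC16A3 counts stayed between 71.8% and 83.0% of the CSNK1D counts.

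SLC16A7 (MCT2, a carrier with high affinity for pyruvate and lactate) fell in rescue. The gene had 6.10 and 6.44 CPM in rescue, 9.17 and 10.9 CPM in hypertonic, and 10.5 and 10.1 CPM in isotonic libraries. Its log2 fold change was -1.02 ± 0.17 against isotonic (SE, edgeR adjusted p = 0.0207) and -0.98 against hypertonic (edgeR adjusted p = 0.022). Both rescue libraries were below the 4 others, among which hypertonic and isotonic overlapped. Without any 1 library of these groups the log2 fold change against isotonic lay between -1.07 and -0.97. The gene lies at chr12:59596067-59789855 on the plus strand and overlaps no other coding row. The chaperones of MCT1 and MCT4 at the cell surface did not pass. BSG (basigin) was at 203.3 and 194.3 CPM in rescue, 181.0 and 157.0 CPM in hypertonic, and 155.4 and 169.7 CPM in isotonic libraries, and EMB (embigin), the partner of MCT2, was between 25.5 and 45.9 CPM in all libraries.

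Among carriers that passed, the largest rises were in SLC16A genes of less familiar cargo. SLC16A6 (MCT7, shown in zebrafish liver to export ketone bodies) was at 62.7 and 59.2 CPM in rescue, 0.414 and 0.869 CPM in hypertonic, and 0.854 and 0.288 CPM in isotonic libraries. It rose 88.2-fold in rescue against isotonic, a log2 fold change of 6.46 ± 0.68 (SE, edgeR adjusted p = 0.0106), and by 6.29 on the log2 scale against hypertonic (edgeR adjusted p = 0.0105). Without any 1 library the log2 fold change against isotonic lay between 5.93 and 7.35. The gene, at chr17:68267026-68291267 on the minus strand, lies wholly inside the span of ARSG, a lysosomal sulfatase gene on the plus strand, and shares 3.55% of its exon bases with it.
ARSG was at 111.7 and 108.0 CPM in rescue, 6.10 and 7.61 CPM in hypertonic, and 7.62 and 5.78 CPM in isotonic libraries, and rose by 3.75 ± 0.17 on the log2 scale against isotonic (SE, edgeR adjusted p = 0.00835). The SLC16A6 count came to 56.1% and 54.8% of the ARSG count in rescue, 6.8% and 11.4% in hypertonic, and 11.2% and 5.0% in isotonic libraries. SLC16A6 thus differed more between rescue and the other labels than ARSG did, and a share of the SLC16A6 reads that belongs to ARSG cannot be told apart in counts whose strand setting is unknown.

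SLC16A14 (MCT14, an orphan carrier) was at 56.1 and 54.4 CPM in rescue, 1.83 and 3.17 CPM in hypertonic, and 2.96 and 1.59 CPM in isotonic libraries. It rose 20.1-fold in rescue against isotonic, a log2 fold change of 4.33 ± 0.40 (SE, edgeR adjusted p = 0.0094), and by 4.18 on the log2 scale against hypertonic (edgeR adjusted p = 0.00953). Rescue stood far above the 4 other libraries, among which hypertonic and isotonic overlapped. No coding row overlaps it at chr2:230034974-230068999, and the nearest is FBXO36, 21865 bases downstream, at 8.01 and 8.48 CPM in rescue, 3.24 and 8.76 CPM in hypertonic, and 8.09 and 3.09 CPM in isotonic libraries. FBXO36 thus did not separate rescue from the other labels. The upstream neighbour SP110, 98294 bases away, was at 60.4 and 62.3 CPM in rescue, 17.0 and 37.6 CPM in hypertonic, and 38.2 and 17.2 CPM in isotonic libraries. SP110 was thus highest in both rescue libraries.

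SLC16A9 (MCT9, a carnitine carrier) was at 49.95 and 51.5 CPM in rescue, 1.18 and 6.64 CPM in hypertonic, and 6.70 and 1.55 CPM in isotonic libraries. Both rescue libraries stood far above the other 4, yet its log2 fold change of 3.37 ± 1.07 against isotonic did not pass (SE, edgeR adjusted p = 0.0907), nor did 3.45 against hypertonic (edgeR adjusted p = 0.0858). DESeq2 called it in both comparisons (adjusted p = 0.00147 against isotonic and 0.00107 against hypertonic), as did limma voom (adjusted p = 0.033 and 0.0292). The spread inside the hypertonic and isotonic labels was wide. The log2 fold change against isotonic was 4.66 without isotonic 1 and 2.70 without isotonic 2, and against hypertonic it was 5.04 without hypertonic 2 and 2.70 without hypertonic 1. No coding row overlaps SLC16A9. MRLN, which lies 690 bases upstream, was at 0.92 and 1.19 CPM in rescue, 0.375 and 0.976 CPM in hypertonic, and 0.978 and 0.299 CPM in isotonic libraries.

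SLC16A13 (MCT13, described in mouse liver as a lactate carrier) was at 6.67 and 6.09 CPM in rescue, 2.48 and 3.11 CPM in hypertonic, and 3.08 and 2.46 CPM in isotonic libraries. It rose by 0.92 ± 0.22 on the log2 scale in rescue against isotonic (SE, edgeR adjusted p = 0.0484) and by 0.90 against hypertonic (edgeR adjusted p = 0.04998), close to the threshold in both. Without the filter on low counts it did not pass, at an edgeR adjusted p of 0.0553 against isotonic and 0.0572 against hypertonic. SLC16A5 (MCT6, known to carry drugs such as bumetanide) was at 1.69 and 1.56 CPM in rescue and between 0.128 and 0.266 CPM in the 4 other libraries. Its log2 fold change was 2.61 ± 0.53 against isotonic (SE, edgeR adjusted p = 0.0317) and 2.81 against hypertonic (edgeR adjusted p = 0.0271).

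SLC16A4 (MCT5, an orphan carrier) was at 38.4 and 43.2 CPM in rescue, 23.1 and 50.3 CPM in hypertonic, and 49.3 and 25.4 CPM in isotonic libraries. SLC16A10 (TAT1, which carries aromatic amino acids) was at 11.9 and 13.2 CPM in rescue, 18.3 and 4.64 CPM in hypertonic, and 4.14 and 19.3 CPM in isotonic libraries. In both, one crossed pair was high and the other low. SLC16A8 (MCT3, the lactate carrier of the retinal pigment epithelium), SLC16A11 and SLC16A12 (a creatine carrier) stayed at or under 4.23 CPM in every library and did not pass.

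**Figure D3:**
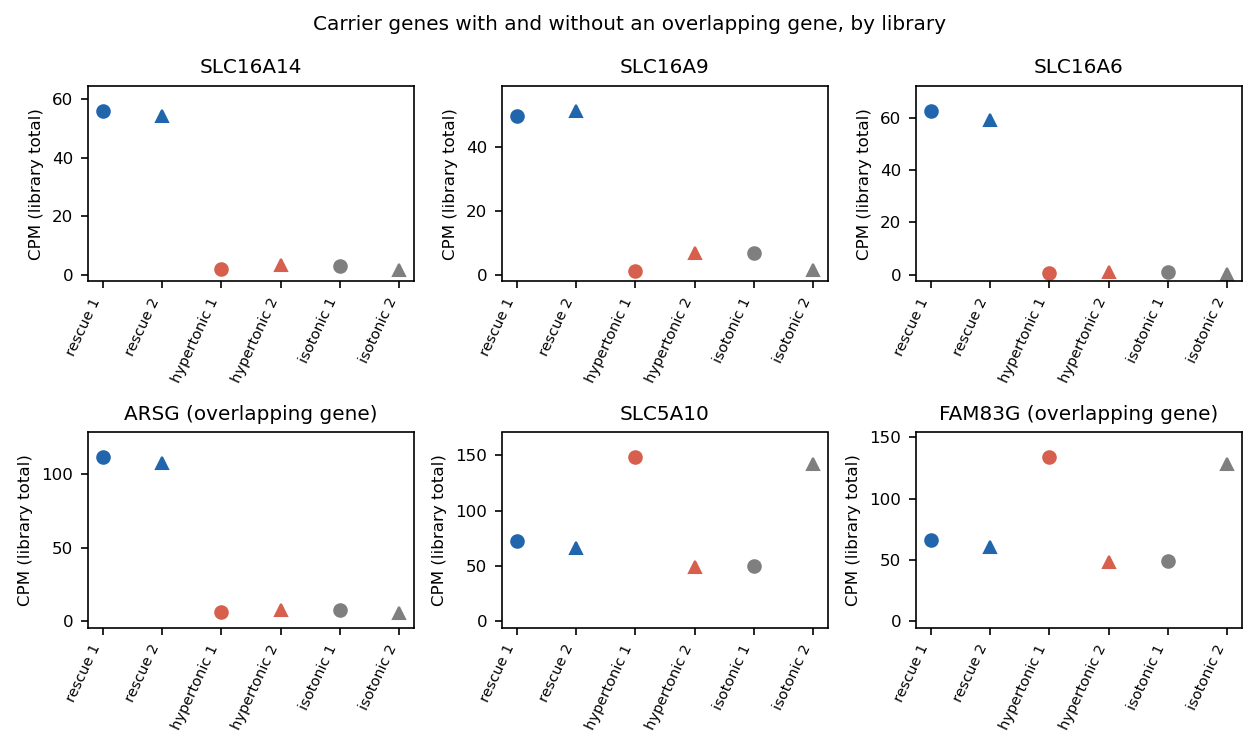
CPM by library total in each of the 6 libraries for SLC16A14 and SLC16A9, which overlap no coding row, for SLC16A6 with ARSG and for SLC5A10 with FAM83G, with rescue on the left, hypertonic in the middle and isotonic on the right. SLC16A6 and ARSG are both high in rescue but differ in ratio, while SLC5A10 and FAM83G are nearly equal in every library.

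The genes whose log2(CPM plus 0.1) over the 6 libraries was most like that of SLC16A6 were found among 13095 genes that averaged 5 CPM or more. They were EPS8L2, DBP, ZNF251, SPTBN5 and POLR2A, with Pearson correlations between 0.9996 and 0.9999. ARSG ranked 102nd at 0.9973. The correlation leaves out the size of a change. EPS8L2 was at 61.84 and 61.66 CPM in rescue and between 22.75 and 27.56 CPM in the other libraries. DBP was at 62.78 and 59.23 CPM in rescue and between 8.415 and 12.48 CPM in the others. The 6 points are in effect a rescue level and a level of the others, and the correlation is a description with no test.

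In hypertonic against isotonic, 0 carriers passed the edgeR quasi-likelihood test, and 0% of all genes rose and 0% fell. At an unadjusted p under 0.05 there were 52 genes and 0 carriers. DESeq2 called 0 genes higher and 1 lower, and limma voom called 0. The median log2 fold change of the carriers was 0.03, beside 0.00 over all genes. With labels whose libraries differed as described above, the spread within a label was wide, so this count does not show that the groups were alike.

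Within a replicate number many carriers differed in opposite directions. Ratios of 1 library over 1 library carry no test and were taken on CPM plus 0.1 for the 35 carriers with at least 100 summed counts. In hypertonic 1 over isotonic 1, 8 carriers were higher by at least 2-fold, where 9.74% of all genes were, and 6 were lower, where 13.1% of all genes were. In hypertonic 2 over isotonic 2, 6 were higher, beside 12.5% of all genes, and 8 were lower, beside 10.2%. The 8 that were higher in number 1 (SLC16A1, SLC16A10, SLC2A3, SLC2A9, SLC5A1, SLC5A10, SLC5A11 and SLC5A5) were the 8 that were lower in number 2. Of the 6 that were lower in number 1 (SLC16A4, SLC16A8, SLC16A9, SLC2A10, SLC2A8 and SLC5A9), 4 were among the 6 that were higher in number 2 (SLC16A6, SLC16A8, SLC16A9, SLC2A8, SLC5A7 and SLC5A9). For SLC2A3 the log2 ratio was 1.84 in number 1 and -1.81 in number 2, for SLC16A10 it was 2.11 and -2.03, and for SLC5A5 it was 3.84 and -3.71. SLC16A9 and SLC16A8 went the other way, with -2.41 and -3.16 in number 1 and 2.03 and 1.99 in number 2. SLC2A1 was near 0 in both, at -0.10 and 0.19. SLC5A7, at 1.04 CPM in isotonic 1 and 0.111 CPM in isotonic 2, had -0.32 in number 1 and 2.24 in number 2, and was the 1 carrier at which a crossed pair differed by more than 2-fold.

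**Figure D4:**
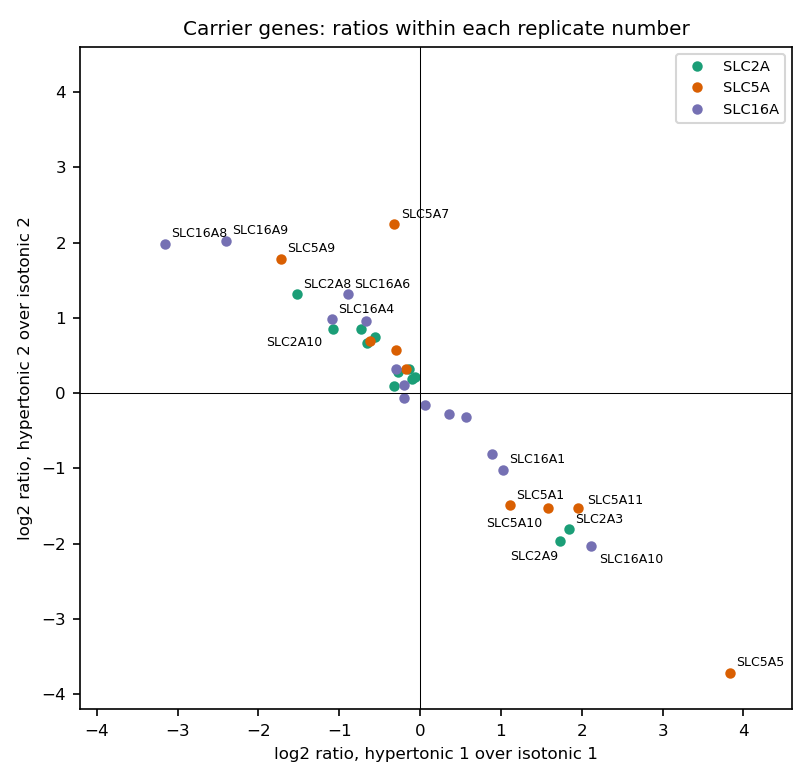
Log2 ratio of hypertonic over isotonic (CPM plus 0.1) in replicate number 1 on the horizontal axis and in number 2 on the vertical axis, 1 point per carrier with at least 100 summed counts, coloured by family. Points fall from upper left to lower right, from SLC16A8 at -3.16 and 1.99 to SLC5A5 at 3.84 and -3.71.

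Fits that kept the isotonic and hypertonic library of 1 number only, and thus drew the spread from the rescue pair, called many more genes. They assume that the lone libraries vary like the rescue pair. In number 1, 13 carriers were higher and 12 lower in hypertonic against isotonic, beside 31.6% and 32.6% of all genes. In number 2, 14 were higher and 12 lower, beside 32.9% and 31%. For rescue against isotonic the carriers called were 24 higher and 11 lower in number 1, beside 40.5% and 38.6% of all genes, and 21 higher and 11 lower in number 2, beside 40.7% and 40.1%. For rescue against hypertonic they were 19 higher and 14 lower in number 1, beside 41% and 40.5%, and 24 higher and 9 lower in number 2, beside 40.5% and 38.6%. The carriers' shares lay near those of all genes in hypertonic against isotonic. All 11 carriers called over the 6 libraries kept the direction of their log2 fold change in each of these fits of rescue. The fits reuse the same rescue libraries and take the spread from them, so this is not an independent check.

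As a description by level alone, both rescue libraries were at least 2-fold above all 4 others for 9 of the 35 carriers, beside 15.4% of all genes by library totals and 11.7% by TMM. These were SLC16A14, SLC16A5, SLC16A6, SLC16A9, SLC2A11, SLC2A14, SLC2A2, SLC5A1 and SLC5A4. The limit of 100 summed counts included the rescue libraries, for carriers and for all genes. SLC16A5 and SLC5A1 reached it only through their rescue counts, so their place in this list is no support for a rise. Both were at least 2-fold below the others for 0 carriers, beside 1.03% of all genes by library totals and 3.35% by TMM. Of the 11 carriers that passed the test in rescue, 8 overlap no coding row and 3 do (SLC2A11, SLC2A13 and SLC16A6).

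Of 33 genes that handle the cargo or regulate the carriers, 3 rose (9.09%) and 6 fell (18.2%) in rescue against isotonic, beside 9.61% and 13.5% of all genes. These shares were near those of all genes, so the values are a description of single genes. The same 3 and 6 were called in rescue against hypertonic. TXNIP, an arrestin-like protein induced by glucose that promotes removal of GLUT1 from the surface, was at 424.6 and 408.3 CPM in rescue, 4.93 and 12.3 CPM in hypertonic, and 11.7 and 4.83 CPM in isotonic libraries. It rose by 5.39 ± 0.65 on the log2 scale in rescue against isotonic (SE, edgeR adjusted p = 0.0123). Its relative ARRDC4 was at 132.0 and 129.4 CPM in rescue, 3.63 and 5.89 CPM in hypertonic, and 5.63 and 4.44 CPM in isotonic libraries, and rose by 4.41 ± 0.25 (SE, edgeR adjusted p = 0.00835). HKDC1, a hexokinase relative, was the other that rose.
MLXIP (MondoA), a glucose-sensing factor known to act on TXNIP and ARRDC4, was at 42.9 and 42.9 CPM in rescue, 83.7 and 86.0 CPM in hypertonic, and 84.7 and 83.6 CPM in isotonic libraries. It fell by 1.27 on the log2 scale in rescue against isotonic (edgeR adjusted p = 0.00891). HK1, which phosphorylates incoming glucose, was at 96.6 and 97.4 CPM in rescue, 205.1 and 164.3 CPM in hypertonic, and 161.2 and 196.7 CPM in isotonic libraries, and fell by 1.19 (edgeR adjusted p = 0.0308). The others that fell were LDHB by 0.53, MPC2, a subunit of the mitochondrial pyruvate carrier, by 0.98, and TBC1D1 and TBC1D4, which control the movement of GLUT4 to the surface, by 1.00 and 0.85 on the log2 scale, with edgeR adjusted p between 0.0187 and 0.0244.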

How the data were processed

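Per the labels' protocols, 6 libraries of U2OS GFP-DCP1A cells were made from total RNA depleted of ribosomal RNA and read on a HiSeq 2000. The authors deposited raw read counts per gene, 1 table per library, as whole numbers with no normalization. The submitters' processing notes list bedtools, Bowtie2, TopHat2 and bcl2fastq, with GRCh38 as the build. Tool versions, annotation and strand setting were not given in the sources used here, and without strand, reads of overlapping genes cannot be told apart. Coordinates came from GENCODE release 29 and promoter windows from RefSeq (GRCh38.p14).

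From the counts, CPM was computed by library total. All 6 libraries entered 1 edgeR 4.0.16 quasi-likelihood model (R 4.3.3) with 1 mean for each group, robust dispersion, TMM scaling and the filterByExpr limit on low counts, a two-sided test and Benjamini-Hochberg adjustment over 18208 genes at 0.05. The common dispersion was 0.148, with 3 residual degrees of freedom. The steps were tested on simulated data. Alternatives were DESeq2 1.42.0, limma 3.58.1 voom, other scalings, no filter on low counts, a replicate block, fits within a number and leaving out each library. ± is the SE of the fit.

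Genes named with values were carriers with a mean of at least 5 CPM, carriers that passed with at least 1 CPM, and handling or regulating genes that passed with at least 5 CPM. Where a count is 5 or fewer its genes are named too, and other carriers with values under 5 CPM were added after their values were seen. The values of 1 carrier are not reported here, although it is included in the counts, sums and medians. The members, the lists and the tests were chosen with earlier results of these data known. Replicate numbers did not pair the samples: deviations of same-numbered libraries correlated at -0.961 between hypertonic and isotonic, 0.043 between rescue and hypertonic and -0.03 between rescue and isotonic.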

Additional observations from a re-analysis of the deposited data

How the results depend on the processing

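Rescue against isotonic called 11 carriers over the 6 libraries and rescue against hypertonic 11. With a replicate block edgeR called 0 in each, and without any 1 library of the compared groups between 0 and 0, over all genes as well. With the block 4896 and 4984 genes were at an unadjusted p under 0.05, 11 and 12 of them carriers. In the fits with number 1 only, 35 carriers were called in rescue against isotonic, 33 in rescue against hypertonic and 25 in hypertonic against isotonic. With number 2 only the counts were 32, 33 and 26. These fits take the spread from the rescue pair. DESeq2 called 14 and 16, limma voom 12 and 12, upper quartile scaling 12 and 12, DESeq2 size factors 11 and 11, library totals 11 and 11, and no filter 10 and 10 in rescue against isotonic and against hypertonic. These counts pool both directions. In rescue against isotonic DESeq2 called 12 carriers higher and 2 lower, beside 3286 and 3712 of all 19940 rows. Limma voom called 11 higher and 1 lower there, beside 2492 and 2612 of 18208 genes. All 11 were kept by DESeq2, limma voom, edgeR with DESeq2 size factors and upper quartile scaling, and 10 of them by library totals and by no filter. The log2 fold changes given for carriers in the text changed sign under none of these alternatives. Carriers given by CPM only could do so: without 1 library, that of SLC2A3 in rescue against isotonic lay between -0.45 and 1.52 and that of SLC16A1 between -0.79 and 0.41. A block of the crossed pairs hypertonic 1 with isotonic 2 and hypertonic 2 with isotonic 1, chosen after seeing the data, called 6 genes higher, 15 lower and 0 carriers in hypertonic against isotonic.

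With TMM scaling the family sums moved to 320.2 (SLC2A, rescue), 288.0 (SLC2A, hypertonic), 279.4 (SLC2A, isotonic), 139.3 (SLC5A, rescue) and 603.1 CPM (SLC16A, rescue), against 367.4, 267.7, 260.9, 159.9 and 692.1 CPM by library totals. The median absolute log2 ratio of named carriers in number 1 was 0.547 with a pseudocount of 1, against 0.658 with 0.1. At a minimum of 10 counts, 34.5 carriers were detected on average in the isotonic libraries, against 37.0 at 3. Levels near 3 counts per library limit SLC5A8, SLC5A12, SLC2A5 and SLC2A7. The causes were not tested.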
